A study of Mus musculus with 18 samples.

Results

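NMDA receptors are glutamate-gated channels built from subunits encoded by 7 genes in the mouse, and the transcripts of all 7 were examined in the spinal dorsal horn (DHSC). The genes were taken by symbol, namely *Grin1*, *Grin2a*, *Grin2b*, *Grin2c*, *Grin2d*, *Grin3a* and *Grin3b*, and each was found once among the 55573 genes of the count table. The study compared adult C57BL/6J mice (8 to 12 weeks) in 3 groups of 6, which were males, females labelled F1/proestrus and females labelled F2/metestrus. F1 and F2 are the female groups with a short and a long interphase of the formalin response. Every animal, males included, had received 2% formalin in the left hind paw (8 µl per 20 g of body weight), and the ipsilateral dorsal horn of segments L3 to L5 was taken 2 h later. No naive animals were sequenced, so that every level below is a level after formalin. The labels give the estrus stage and the sex but not whether a sample is 1 animal, and p-values below measure the spread between these samples.

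The obligatory subunit of the receptor, GluN1, is encoded by *Grin1* and binds the co-agonist glycine or D-serine. It assembles with glutamate-binding GluN2 subunits (*Grin2a* to *Grin2d*), which set the conductance, the magnesium block and the decay of the current, or with glycine-binding GluN3 subunits (*Grin3a*, *Grin3b*), which lower calcium permeability. In the dorsal horn, NMDA receptors are known for their role in central sensitization, the increase in synaptic responses that follows intense nociceptor input such as that evoked by formalin. The study asked whether the DHSC differs in its transcripts between proestrus and metestrus and between the sexes, and the same comparisons are given here for the receptor.

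All coordinates are from GENCODE vM21 on GRCm38. *Grin1* (ENSMUSG00000026959) lies on the minus strand of chromosome 2 (chr2:25291181-25319187). *Grin2a* (ENSMUSG00000059003) spans chr16:9567898-9995560 and *Grin2b* (ENSMUSG00000030209) spans chr6:135713233-136173511, both on the minus strand. *Grin2c* (ENSMUSG00000020734, chr11:115249169-115267243), *Grin2d* (ENSMUSG00000002771, chr7:45831883-45878378) and *Grin3a* (ENSMUSG00000039579, chr4:49661611-49845744) are also on the minus strand. *Grin3b* (ENSMUSG00000035745, chr10:79970715-79977190) is the only member on the plus strand.

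The members are paralogs, and the study kept only uniquely mapped reads, so the stretches that pairs of members share were read from the GENCODE transcripts. Between protein-coding transcripts, *Grin2c* and *Grin2d* shared an identical run of 32 bases. The GluN3 genes shared at most 23 bases, and no run between *Grin1* and another member was longer than 17 bases. Runs between other GluN2 genes are not reported here. The sequences below show the shared run of a GluN2 and of a GluN3 pair. Each is written 5′ to 3′ in the sense of the transcript, with the shared run in capitals and 12 bases of that gene on either side in lower case, and all lie in coding exons.
Grin2c (exon 7, chr11:115255377-115255408, minus strand): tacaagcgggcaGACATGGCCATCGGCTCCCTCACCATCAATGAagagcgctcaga
Grin2d (exon 6, chr7:45856844-45856875, minus strand): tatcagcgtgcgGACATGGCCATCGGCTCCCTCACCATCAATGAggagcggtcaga
Grin3a (exon 3, chr4:49770822-49770844, minus strand): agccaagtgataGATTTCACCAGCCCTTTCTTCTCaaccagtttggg
Grin3b (exon 3, chr10:79974288-79974310, plus strand): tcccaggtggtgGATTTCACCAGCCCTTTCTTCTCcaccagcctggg
The coordinates are those of the run without its flanks. In both pairs the flanking bases differ within 12 bases of the run on both sides.

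Genes that overlap a member on the opposite strand are a further source of shared reads, since the sources used here do not state whether the counting used the strand. *Grin1os*, an antisense gene, shares 1307 exon bases with *Grin1*, and over the 18 samples it had 315271 counts against 644356 for *Grin1*. It had 47.5 to 50.4 CPM for every 100 CPM of *Grin1*, a ratio that hardly moved between samples, and reads from the shared stretch cannot be told apart. CPM are counts scaled to the size of the library, after correction of library sizes by the TMM method. *Tmem259*, which codes for a membrane protein, shares 1059 exon bases with *Grin3b*, and its counts (54247) exceeded those of *Grin3b* (16161). *Gm45441* shares 643 exon bases with *Grin2d* and had 7039 counts against 50286. For *Grin2b* and *Grin2c* the overlapping small or non-coding genes had few counts, and no other gene shared exon bases with *Grin2a* or *Grin3a*.

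Between 73590509 and 125724156 reads were counted per sample. The member with the fewest counts, *Grin3b*, had 424 to 1355 counts per sample, and *Grin1*, with the most, had 26732 to 45047. Numbers of the libraries, from the first header line of the count table, form 2 series, 27 to 35 with replicates 1 to 3 of every group and 188 to 196 with replicates 4 to 6. The tissue label was checked against marker genes, and the 7 markers of dorsal horn excitatory neurons summed to 442 to 592 CPM and the 5 of inhibitory neurons to 599 to 846 CPM. Of the forebrain markers, *Emx1* was at 0 or near it (at most 0.0507 CPM), but *Neurod6* was found in every sample at 3.61 to 5.99 CPM. In the library of F1/proestrus replicate 5, the 6 markers of dorsal root ganglion neurons summed to 410 CPM, against 1.247 to 2.631 CPM in the other 17 libraries, and the fold changes of the members and the differences in the *Grin2c* and *Grin2a* shares are also given without it. The 7 motor neuron markers, which are expected in the ventral horn, ranged from 77.6 to 320 CPM.

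*Grin1* had the highest level in every sample, with 354 ± 22.3 CPM over the 18 samples (SD, n = 18). Among males it had a low of 308, a median of 351 and a high of 408 CPM, in F1/proestrus 328, 360 and 370 CPM, and in F2/metestrus 338, 355 and 367 CPM. Males thus held both the lowest and the highest samples, with 2 males above and 2 below every female. *Grin3a* followed with 105 ± 12.1 CPM. The 4 GluN2 genes lay close together in CPM, at 24.7 ± 2.70 for *Grin2a*, 18.3 ± 2.18 for *Grin2b*, 27.7 ± 4.91 for *Grin2c* and 27.6 ± 2.45 for *Grin2d*, and *Grin3b* was lowest at 8.93 ± 2.45 CPM (SD, n = 18 each).

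**Figure D1:**
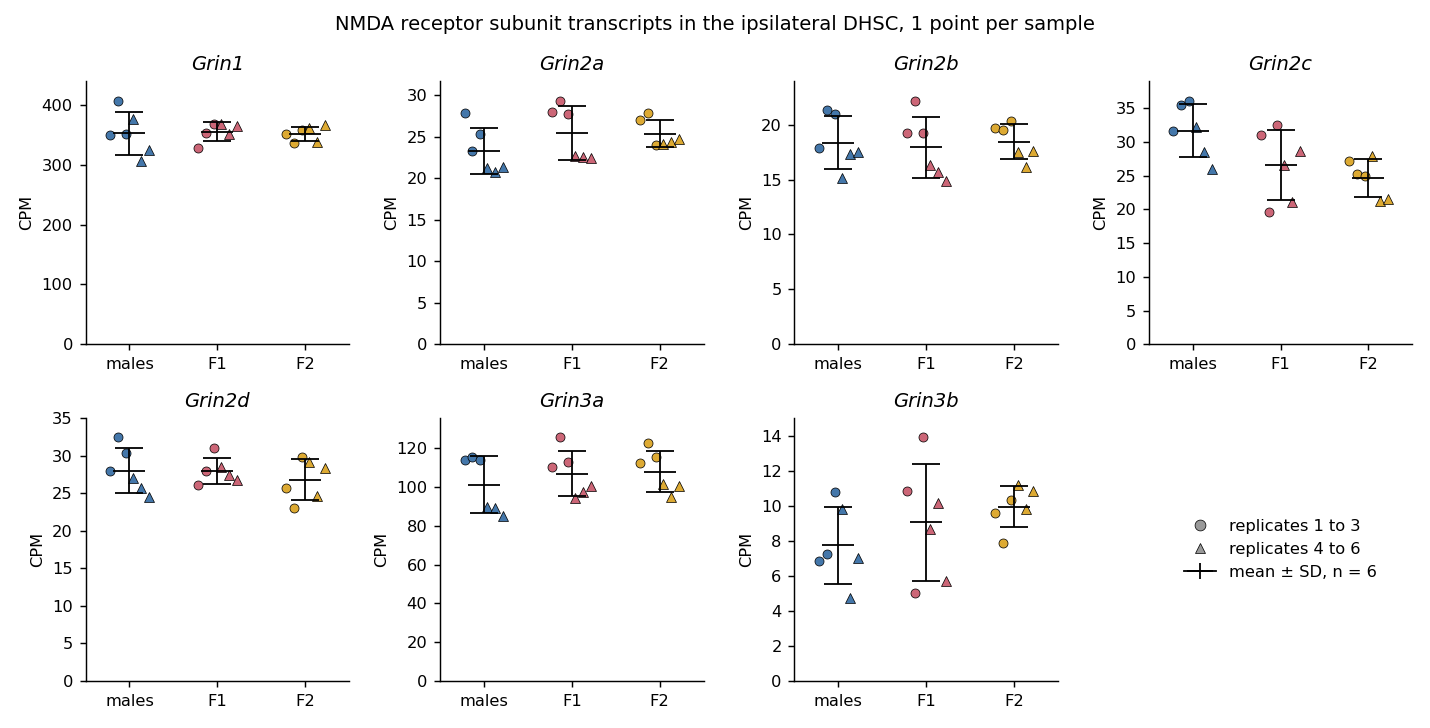
Normalized read count (CPM, linear axis from 0) of each NMDA receptor subunit gene in the 6 males, 6 F1/proestrus (F1) and 6 F2/metestrus (F2) samples. Circles are replicates 1 to 3, triangles replicates 4 to 6, and bars the mean ± SD of 6 samples. The groups overlap for every gene, whereas circles and triangles separate for *Grin2b* and *Grin3a*.

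A level can be compared between genes only per length, and the members differ greatly in the part of their merged exons that is coding. The merged exons of *Grin2b* measure 24842 bases, of which 4446 are coding, and those of *Grin2a* 17933 bases, of which 4392 are coding. The merged exons of *Grin3b* measure only 3296 bases, of which 3009 are coding. Both scales were therefore used, CPM per kb of merged exons and CPM per kb of coding sequence. The counts are those of reads over all exons on both scales, so the second is not a level of coding reads alone. Its length is that of the gene's longest coding sequence, whereas merged exons pool all transcripts of the gene.

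Per kb of merged exons, the order of the levels was *Grin1* (36.5 ± 2.30 CPM per kb), *Grin3a* (8.58 ± 0.987), *Grin2c* (5.49 ± 0.976), *Grin2d* (4.14 ± 0.369), *Grin3b* (2.71 ± 0.743), *Grin2a* (1.38 ± 0.150) and *Grin2b* (0.735 ± 0.0877; SD, n = 18 each). Each neighbour in this order was higher than the next in 17 or 18 of the 18 samples. Per kb of coding sequence, *Grin1* (123 ± 7.74 CPM per kb) and *Grin3a* (31.0 ± 3.56) stayed first and second, followed by *Grin2c* (7.44 ± 1.32), *Grin2d* (6.95 ± 0.619), *Grin2a* (5.63 ± 0.613), *Grin2b* (4.11 ± 0.490) and *Grin3b* (2.97 ± 0.814). On this scale *Grin2c* exceeded *Grin2d* in only 12 of 18 samples, so that these neighbours did not differ beyond their spread. The rank of *Grin3b* moved from the fifth to the last place with the scale, whereas *Grin1*, *Grin3a*, *Grin2c* and *Grin2d* kept their places. *Grin1* was 4.25-fold higher than *Grin3a* per kb of merged exons and 3.98-fold higher per kb of coding sequence.

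**Figure D2:**
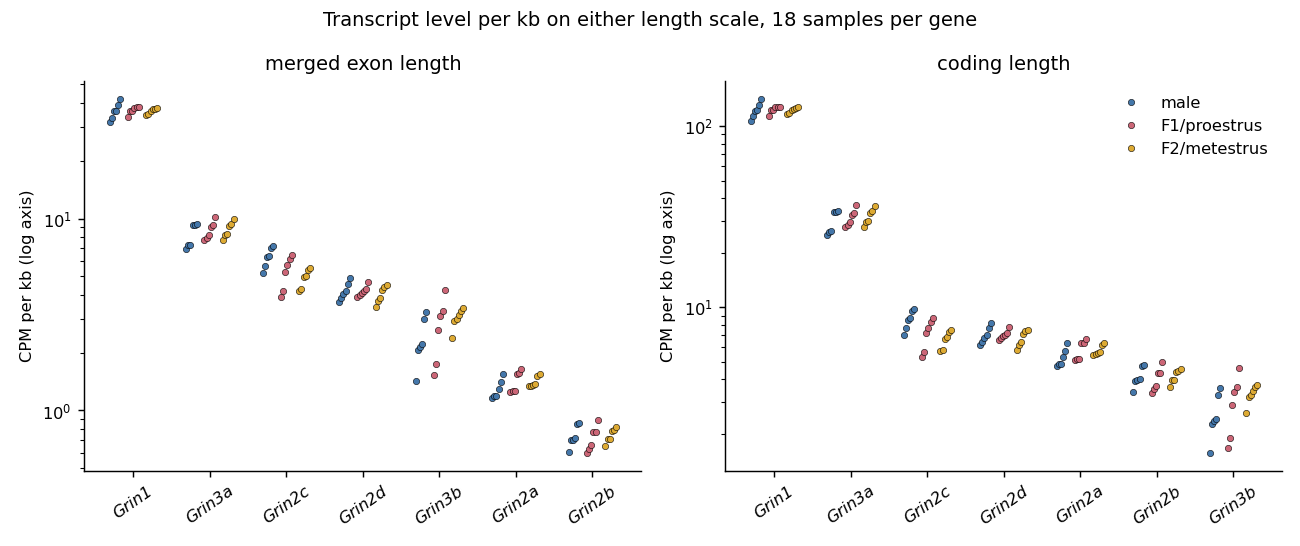
Level of each member in CPM per kb on log axes, per kb of merged exons (left) and of coding sequence (right), with 1 point per sample and colours for the 3 groups. *Grin1* and *Grin3a* lead on both scales, while *Grin3b* falls from the fifth to the last place on the right.

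Between F2/metestrus and F1/proestrus, 0 of the 7 members differed (edgeR's quasi-likelihood test on the 12 females, FDR 5%), against a background of 0% (0 of 24042 genes tested, with 596 at an unadjusted p under 0.05). DESeq2 called 2 genes overall and 0 members. The smallest unadjusted p of a member was 0.372, for *Grin2c*, which had 24.7 ± 2.78 CPM in F2/metestrus and 26.6 ± 5.25 CPM in F1/proestrus (SD, n = 6). Its log2 fold change was -0.11 (95% interval -0.37 to 0.15, edgeR adjusted p = 1.0). For the obligatory subunit *Grin1* the log2 fold change was -0.02 (95% interval -0.11 to 0.08), which makes it the most narrowly bounded member. *Grin2a* (-0.01), *Grin2b* (0.04), *Grin2d* (-0.06) and *Grin3a* (0.01) had log2 fold changes near 0, with 95% intervals that reached from -0.21 at the lowest to 0.25 at the highest. *Grin3b* had the widest interval, from -0.29 to 0.56 around 0.13. Its level varied most in F1/proestrus, where the lowest sample had 5.04, the median 9.44 and the highest 13.9 CPM, against 7.87, 10.1 and 11.2 CPM in F2/metestrus. Leaving out 1 library moved *Grin3b* between 0.01 (without F1/proestrus replicate 2) and 0.29 (without F1/proestrus replicate 3), and *Grin2c* between -0.18 and -0.05 on leaving out the same libraries. The direction of *Grin3b* differed between the library series. Its log2 fold change was -0.10 in the first series alone (95% interval -0.73 to 0.53) and 0.38 in the second (95% interval -0.06 to 0.81). Without F1/proestrus replicate 5, the library with root ganglion markers, the members ranged from -0.17 for *Grin2c* to 0.17 for *Grin3b*, and 0 were called.

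Between males and females, 0 of the 7 members passed the threshold in edgeR's quasi-likelihood test on the 18 samples, against a background of 0.197% (49 of 24862 genes tested). With an unadjusted p under 0.05 there was 1 member, *Grin2c*, beside 2416 of the 24862 genes, and DESeq2 also called 0 members. *Grin2c* encodes GluN2C, a subunit with weak magnesium block that is known from cerebellar granule cells and from astrocytes. Its lowest, median and highest values were 26.1, 32.0 and 36.2 CPM in males, 19.6, 27.7 and 32.6 CPM in F1/proestrus, and 21.2, 25.1 and 27.9 CPM in F2/metestrus. All 6 males lay above the median of the females and 2 above every female, but the sexes overlapped. The mean was 31.7 ± 3.89 CPM in males (SD, n = 6) and 25.6 ± 4.13 CPM in females (SD, n = 12). The log2 fold change of *Grin2c* was 0.31 (standard error 0.0995, 95% interval 0.10 to 0.51), with an unadjusted p of 0.00573 and an edgeR adjusted p of 0.319, which ranked 447 by p among the 24862 genes. Over the alternative fits with all samples, with 1 library series or with 1 female group, its log2 fold change stayed between 0.24 and 0.35 and its adjusted p between 0.1001 and 0.8815. In the first library series males had 34.4 ± 2.41 CPM (SD, n = 3) and females 26.8 ± 4.64 CPM (SD, n = 6), and in the second 29.0 ± 3.10 and 24.5 ± 3.61 CPM. The log2 fold changes within the series were 0.35 and 0.24. Without F1/proestrus replicate 5 the value was 0.28 (edgeR adjusted p = 0.340).

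The other members gave no call between the sexes. *Grin2a* had 23.3 ± 2.81 CPM in males and 25.4 ± 2.45 in females, a log2 fold change of -0.13 (95% interval -0.28 to 0.03). *Grin3b* had 7.75 ± 2.21 CPM in males and 9.52 ± 2.44 in females, a log2 fold change of -0.30 (95% interval -0.68 to 0.08). *Grin1* (-0.003, 95% interval -0.10 to 0.10), *Grin2b* (0.01, -0.16 to 0.19) and *Grin2d* (0.03, -0.10 to 0.17) were near 0. *Grin3a*, the second most abundant member, had a log2 fold change of -0.09 (95% interval -0.25 to 0.08). With the library series as a covariate the intervals of *Grin2a* (-0.13, 95% interval -0.22 to -0.03, edgeR adjusted p = 0.172) and *Grin3a* (-0.09, 95% interval -0.17 to -0.02, edgeR adjusted p = 0.198) no longer covered 0. In that fit 3 members, with *Grin2c*, and 4075 of the 24862 genes had an unadjusted p under 0.05, and 0 members passed the FDR of 5%. Without F1/proestrus replicate 5 these 6 members ranged from -0.29 for *Grin3b* to 0.03 for *Grin2d*, and 0 were called. The difference between the sexes was also tested for a change between the library series (an interaction term in edgeR, added after seeing the data), and 0 of 24862 genes passed, with 1235 at an unadjusted p under 0.05. *Grin2d* was the member with the smallest interaction p (edgeR adjusted p = 0.964).

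**Figure D3:**
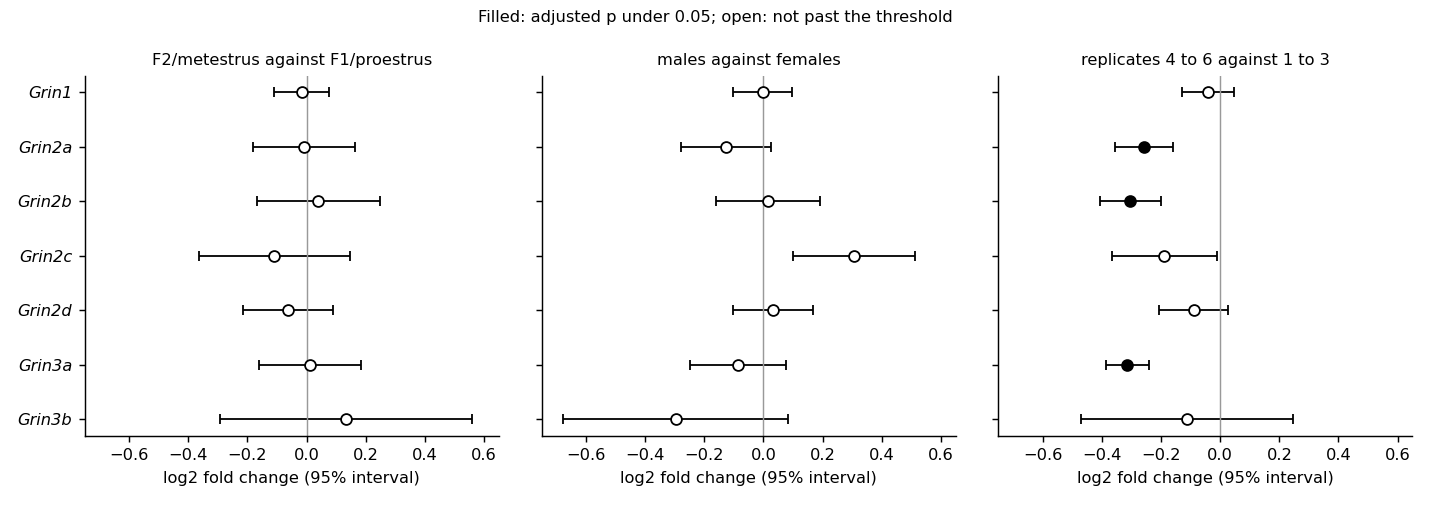
Log2 fold change of the 7 members in the 3 comparisons (points) with 95% intervals from edgeR's quasi-likelihood test. Open points did not pass an FDR of 5%, and filled points did, which are *Grin2a*, *Grin2b* and *Grin3a* between the library series only.

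The balance between the members was then compared, because a receptor's properties depend on which GluN2 subunit it holds and not on the sum. For each sample the share of each GluN2 gene in the sum of the 4 was taken per kb of merged exons, together with 3 log2 ratios or sums, and the 7 quantities were tested by two-sided exact permutation with Benjamini-Hochberg adjustment over the 7. The shares add up to 100% and are not independent of one another.

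Between the sexes the *Grin2c* share was higher in males. It had a low of 48.1, a median of 49.9 and a high of 52.2% in males, of 36.7, 47.0 and 49.6% in F1/proestrus, and of 40.3, 44.4 and 46.7% in F2/metestrus. All 6 males lay above all 6 F2/metestrus samples and 4 of 6 above every F1/proestrus sample. The mean share was 50.1 ± 1.46% in males (SD, n = 6) and 44.6 ± 3.96% in females (SD, n = 12), a difference of 5.51 percentage points (exact permutation test over 18564 splits, p = 0.00496, adjusted p = 0.0187). The *Grin2a* share was lower in males, at 10.4 ± 1.06% against 12.6 ± 1.43%, a difference of -2.15 percentage points (exact permutation p = 0.00533, adjusted p = 0.0187), with 4 of 6 males below every female. These adjustments cover the 7 quantities only. In edgeR's test over 24862 genes, *Grin2c* and *Grin2a* had adjusted p-values of 0.319 and 0.574 between the sexes. In that test 2416 genes had an unadjusted p under 0.05. *Grin2a* encodes GluN2A, the GluN2 subunit of the fastest currents, which predominates at many mature synapses.

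Per kb of coding sequence the *Grin2c* share was 34.0 ± 1.63% in males and 29.0 ± 3.34% in females (exact permutation test, adjusted p = 0.0162). The *Grin2a* share was larger in both sexes on that scale, at 21.2 ± 1.85% in males and 24.5 ± 1.95% in females, a difference of -3.24 percentage points (exact permutation test, adjusted p = 0.0162). Within the first library series the difference in the *Grin2c* share was 5.17 and within the second 5.85 percentage points, and neither passed the adjusted threshold with 3 males and 6 females (exact permutation, adjusted p = 0.188 and 0.111). Without male replicate 2 the differences in the *Grin2c* and *Grin2a* shares were 5.53 and -1.92 percentage points and no longer passed (exact permutation, adjusted p = 0.0549 for both). Without F1/proestrus replicate 5 the differences in the *Grin2c* and *Grin2a* shares were 5.19 and -2.17 percentage points (adjusted p = 0.0243 for both, exact permutation).

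The remaining quantities did not pass between the sexes. The *Grin2d* share was 33.6 ± 0.810% in males (n = 6) and 36.4 ± 3.06% in females (n = 12; exact permutation, adjusted p = 0.0844), and the *Grin2b* share was 5.91 ± 0.542% and 6.49 ± 0.858% (adjusted p = 0.186). The log2 ratio of *Grin1* to the GluN2 sum was 1.54 ± 0.112 in males and 1.69 ± 0.123 in females (exact permutation, adjusted p = 0.0579). That of the GluN3 sum to *Grin1* was -1.79 ± 0.155 and -1.65 ± 0.147 (exact permutation, adjusted p = 0.128). The log2 sum of the 7 genes was 5.89 in both sexes, with more spread in males (SD 0.147, n = 6) than in females (SD 0.0544, n = 12). Between F2/metestrus and F1/proestrus, 0 of the 7 quantities passed, and the smallest adjusted p was 0.818 (exact permutation over 924 splits). The *Grin2c* share differed by -1.01 and the *Grin2a* share by 0.53 percentage points between these groups, and by -1.81 and 0.55 without F1/proestrus replicate 5.

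**Figure D4:**
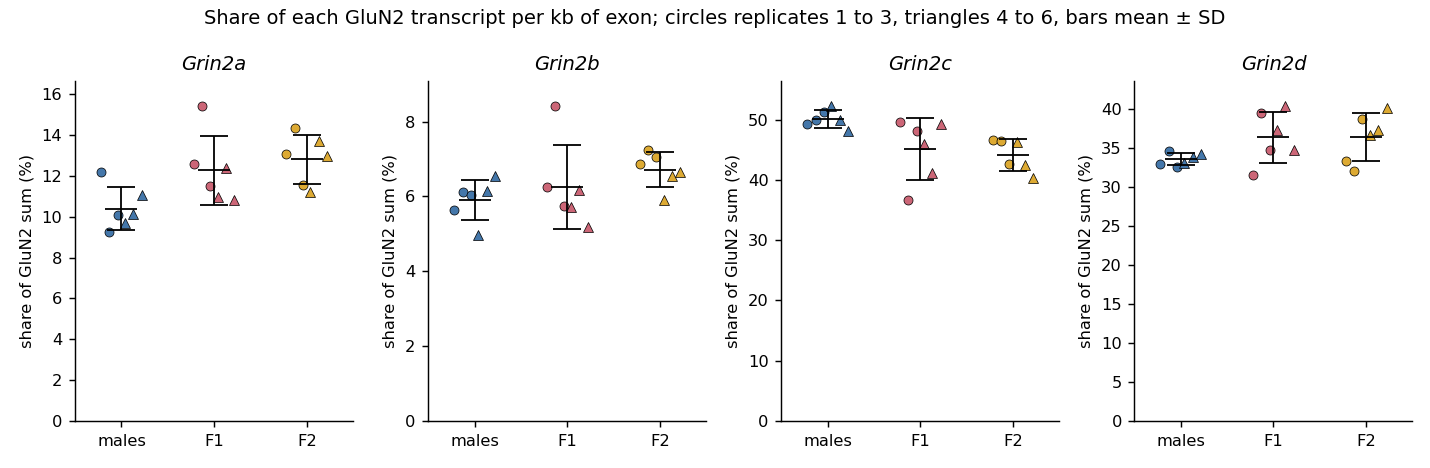
Share of each GluN2 transcript in the sum of the 4, per kb of merged exons, in percent on axes from 0, with circles for replicates 1 to 3, triangles for replicates 4 to 6 and bars for the mean ± SD (n = 6). The 6 males sit between 48.1 and 52.2% for *Grin2c*, above all F2/metestrus samples, and between 9.23 and 12.2% for *Grin2a*.

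Markers of other cell types were summed beside this difference. The 5 astrocyte markers had medians of 2969 CPM in males (2774 to 3080) and 2964 CPM in females (2771 to 3623). The 4 Schwann cell markers had a median of 1102 CPM in males (863 to 2136) and of 733 CPM in females (578 to 1168, and up to 894 without F1/proestrus replicate 5), and the 5 microglia markers 345 CPM (326 to 354) and 313 CPM (290 to 338). The 6 neuronal markers had medians of 5084 and 5133 CPM. No marker of these lists was at 0 in any sample, and the part of Schwann cell or microglial RNA in the *Grin2c* difference was not tested. In tissue samples such as these, fewer cells of a type and less RNA per cell cannot be told apart.

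The strongest difference among the members was between the library series. In replicates 4 to 6 of every group, compared with replicates 1 to 3, 3 of 7 members passed an FDR of 5%, all lower (edgeR with group and series as terms), against a background of 27.6% of all genes called (6637 of 24038). *Grin3a* had 111 to 126 CPM in the first series, with a median of 114, and 84.9 to 102 CPM in the second, with a median of 94.98. The series did not overlap. Its log2 fold change was -0.31 (standard error 0.0352, edgeR adjusted p = 3.23e-06), the smallest p of the 7. *Grin2b* encodes GluN2B, which anchors the kinase CaMKII, and had 17.9 to 22.2 CPM in the first and 14.9 to 17.6 CPM in the second series, again without overlap, with a log2 fold change of -0.30 (edgeR adjusted p = 0.000134). *Grin2a* had 23.3 to 29.4 and 20.7 to 24.8 CPM, with 6 of 9 samples of the second series below all 9 of the first and a log2 fold change of -0.26 (edgeR adjusted p = 0.000402). *Grin2c* (-0.19, adjusted p = 0.110), *Grin2d* (-0.09), *Grin3b* (-0.11) and *Grin1* (-0.04) did not pass. Leaving out F1/proestrus replicate 2 brought *Grin2c* past the threshold (log2 fold change -0.23, edgeR adjusted p = 0.0208). Without F1/proestrus replicate 5 the same 3 members passed, at -0.30 for *Grin3a*, -0.28 for *Grin2b* and -0.23 for *Grin2a*.

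*Grin2a*, *Grin2b* and *Grin3a* are the members with the longest merged exons (17933, 24842 and 12275 bases), and over all genes the difference between the series went with this length. Among the 887 tested genes with merged exons of 12000 bases or more the median log2 fold change was -0.25, and 62.3% were called lower and 1.24% higher. Among the 7943 genes under 2000 bases the median was 0.04, with 7.43% lower and 17.4% higher. The *Grin2a*, *Grin2b* and *Grin3a* values thus lay near the median of genes of their length, while *Grin2c* (5037 bases) was further below the median of -0.03 for genes of 4000 to 6000 bases. *Grin1* (9700 bases, -0.04) lay above the median of -0.16 for genes of 8000 to 12000 bases. The part of transcript length in the difference was not tested. Marker sums moved with the series as well, from a median of 795 to 676 CPM for inhibitory neurons (734 to 846 and 599 to 763) and from 455 to 506 CPM for dorsal horn excitatory neurons (442 to 493 and 473 to 592), and their part was not tested. Every group had 3 samples in each series.

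**Figure D5:**
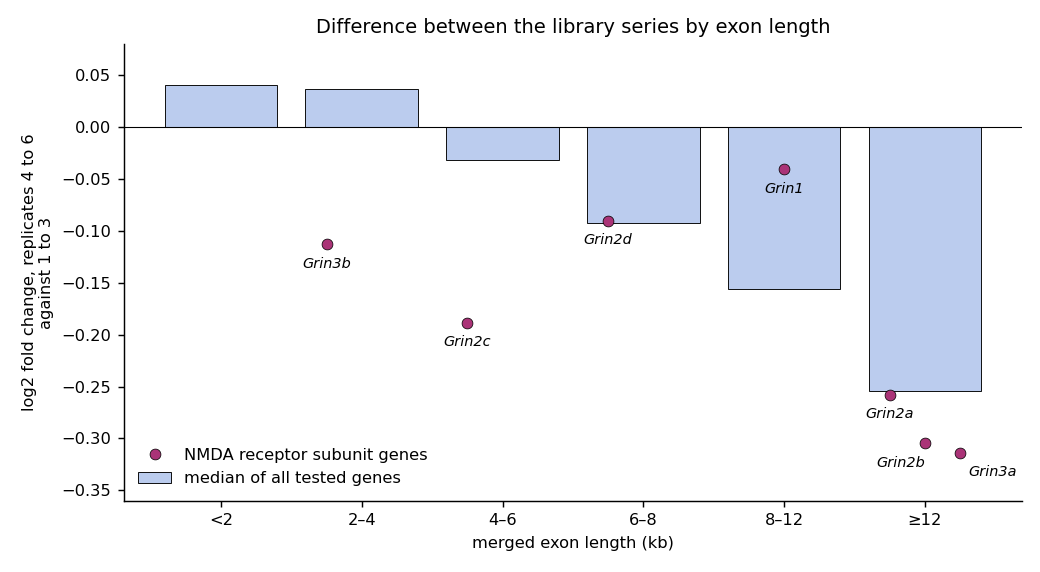
Log2 fold change of replicates 4 to 6 against 1 to 3. Bars are the median over all tested genes in 6 bins of merged exon length (kb), and points are the 7 members placed in their bin. The bars fall from 0.04 under 2 kb to -0.25 at 12 kb and above, where *Grin2a*, *Grin2b* and *Grin3a* lie.

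Correlations between members were taken within each library series (log2 CPM with a prior count of 2, n = 9), for 21 pairs per series. No pair passed after adjustment in either series (exact permutation, smallest adjusted p = 0.189 in the first and 0.253 in the second). *Grin1* and *Grin2d* had the highest r in the first series (r = 0.77, exact permutation p = 0.0158, rho = 0.73, p = 0.0311) and r = 0.70 in the second (p = 0.0352, rho = 0.62, p = 0.0857; n = 9). Without the 2 samples farthest from the median of *Grin1*, r was 0.85 and 0.60. *Grin3a* and *Grin3b* had opposite signs in the series, with r = -0.72 (exact permutation p = 0.0270, rho = -0.68, p = 0.0503) and r = 0.42 (p = 0.261, rho = 0.67, p = 0.0589). A relation between the GluN3 genes that held in both series was not found.

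For each member the genes most like it were sought among 17756 others with a mean of at least 1 CPM, by Pearson's r over the 18 samples after centring within the series. The values are the highest of many, and describe these samples only. For *Grin1* they were its antisense neighbour *Grin1os* (r = 0.98) and *Plcg1* (r = 0.92), which encodes a phospholipase C. *Grin1os* shares 1307 exon bases with *Grin1*, and reads from that stretch cannot be told apart. For *Grin2a* they were *Mpp5* (r = 0.88) and *Daam1* (r = 0.87), and for *Grin2b* *Sec22c* (r = 0.75) and *Spata33* (r = 0.70), the lowest values of the family. For *Grin2c* they were *Ppp1r1b* (r = 0.92), which encodes the phosphatase regulator DARPP-32, and *Pnpla2* (r = 0.90), which encodes a triglyceride lipase. *Grin2d* was most like *Lrp3* (r = 0.92) and *Mir6944* (r = 0.89), and *Grin3a* most like *Nlgn3* (r = 0.93), which encodes a postsynaptic adhesion protein, and *Astn1* (r = 0.88).

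*Grin3b*, whose GluN3B subunit is known from motor neurons, was most like the potassium channel gene *Kcng4* (r = 0.96) and *Chat* (r = 0.96), which encodes the acetylcholine-synthesizing enzyme of motor neurons. For *Chat*, r was 0.96 within the first and 0.98 within the second series, and 0.94 without the 2 samples farthest from the median of *Grin3b*. The 3 samples with the least *Grin3b*, at 4.72, 5.04 and 5.73 CPM, were male replicate 5, F1/proestrus replicate 2 and F1/proestrus replicate 6. They also had the least *Chat*, at 4.14, 6.99 and 8.43 CPM. F1/proestrus replicate 3 had the most of both, with 13.9 CPM of *Grin3b* and 28.4 CPM of *Chat*. The motor neuron markers thus moved with *Grin3b* across samples of the same group, and their median sum was 163 CPM in males (77.6 to 248), 201 in F1/proestrus (102 to 320) and 221 in F2/metestrus (208 to 263). The highest of these sums, in F1/proestrus replicate 5, includes *Ret* and *Isl1*, which root ganglion neurons also express.

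A list of 41 genes for proteins that bind, anchor, modify or supply the receptor was examined by role. All 41 were tested, and between F2/metestrus and F1/proestrus 0 passed the FDR of 5% in edgeR's test, with 0 at an unadjusted p under 0.05. The median log2 fold change was -0.02, against -0.0004 over all genes. The smallest p was that of *Dao*, the D-amino acid oxidase that degrades D-serine, with a log2 fold change of -0.26 (an unadjusted p of 0.0702, edgeR adjusted p = 1.0). *Nos1* (0.08), *Slc7a10* (0.09), *Actn2* (-0.13) and *Prkaca* (0.05) came next.

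Between males and females 0 of the 41 passed, with 2 at an unadjusted p under 0.05 (2416 of all 24862 genes), and the median log2 fold change was 0.02. *Ptpn5*, which encodes the phosphatase STEP that acts on GluN2B, had 0.14 (95% interval 0.04 to 0.24, an unadjusted p of 0.00688, edgeR adjusted p = 0.323). *Kif17* (0.17), whose kinesin carries GluN2B vesicles, *Shank1* (0.13) and *Rasgrf1* (-0.09) followed. None of the 9 scaffold genes, the 3 auxiliary partners or the 5 genes of co-agonist supply had an unadjusted p under 0.05 between the sexes.

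Between the library series 14 of the 41 passed, 11 lower and 3 higher, beside the background of 27.6%, with a median of 0.005 over the list and -0.01 over all genes. Of the scaffold genes, *Dlg2* (-0.47), *Dlg3* (-0.18) and *Dlg1* (-0.18) were lower, and 0 of 9 higher. *Ephb2* (-0.34), a receptor that binds GluN1 at the cell surface, *Apba1* (-0.43), an adaptor of the transport complex, *Rasgrf2* (-0.52) and the kinase genes *Csnk2a1* (-0.57) and *Prkca* (-0.36) were also lower. *Phgdh*, the first enzyme of serine synthesis, was higher (0.36, edgeR adjusted p = 1.26e-05).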

How the data were processed

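RNA-sequencing of 18 ipsilateral DHSC samples was used. The authors deposited raw counts per gene, from reads mapped uniquely to mm10 with Subread (2.0.3 in the submitters' processing notes) and counted with featureCounts. The methods name a TruSeq kit and the labels a SMART-Seq and Nextera XT kit, and the use of strand is not given in the sources used here. From the authors' DESeq2 table only gene symbols were taken, not its fold changes and p-values.

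Genes with low counts were removed by filterByExpr at its defaults (at least 10 counts in enough samples, 15 in all). The rest were normalized by TMM and tested with edgeR 4.0.16 in R 4.3.3 (quasi-likelihood, Benjamini-Hochberg over all genes, FDR 5%). Of the gene IDs 55480 were found in GENCODE vM21, which gave exon lengths. On simulated counts the test recovered 83.3% of 198 genes changed 2-fold between the sexes. Of genes changed 1.25-fold it recovered 19.3% between the sexes and 5.58% between the female groups, so that differences of this size are mostly missed.

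Alternatives were DESeq2 1.42.0, limma voom 3.58.1, size factors, other filters, robust dispersions, a replicate block, the library series, 3 groups in 1 fit, each female group alone, other length scales and leaving out each sample. Named genes were all members, partner genes past the FDR (at most 10 by p, otherwise the 5 smallest p) and the 2 genes most like each member. The members and lists were chosen with earlier results of these data known. Some genes and sequences are not reported here.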

Additional observations from a re-analysis of the deposited data

Results flagged for a closer look

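In 42 groups of 6 values (7 genes and 7 quantities in 3 groups), 2 held a sample far from the other 5 by Dixon's test, which flags about 1 in 20 groups by chance. F1/proestrus replicate 2 had a *Grin2b* share of 8.41% of the GluN2 sum, against 5.19 to 6.26% in the other 5 samples of its group. The same sample had the lowest *Grin2c* share of all 18, at 36.7%. F1/proestrus replicate 3 had a log2 sum of the 7 genes of 6.02, above 5.91 in the next sample of its group.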

How the results depend on the processing

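The count of members called stayed at 0 of 7 between the female groups and between the sexes under every alternative run. Between the library series it stayed at 3, or 4 without F1/proestrus replicate 2. The number of all genes called between the sexes (49) was 166 with DESeq2, 148 with the replicate block, 134 with the series as a covariate, 31 with 10 counts in every sample, 16 and 13 within the series, 13 and 22 against F1/proestrus and F2/metestrus alone, and 25 to 77 when leaving out 1 sample (25 without male replicate 5, 30 without male replicate 4, 77 without F1/proestrus replicate 5).

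Replicate numbers were not taken to pair the samples. Of the same-numbered pairs 9 of 18 correlated over 0.1 (median r = 0.0823). Of the differently numbered pairs within a series, 18 of 36 did (median r = 0.0985). With the replicate block, as a shared number only, the differences between the sexes in the *Grin2c* and *Grin2a* shares stayed at 5.51 and -2.15 percentage points, with an adjusted p of 0.0547 for both (exact sign changes, smallest possible unadjusted p 0.0313). Within the series alone the *Grin2c* difference was 5.17 and 5.85 and the *Grin2a* difference -2.59 and -1.72. Neither was past the threshold, which the few splits within a series make hard to reach. Leaving out each sample gave 4.79 to 5.96 for *Grin2c* and -2.51 to -1.89 for *Grin2a*. The *Grin2d* share (-3.22 to -2.42) passed without F1/proestrus replicate 1, and the log2 ratio of *Grin1* to GluN2 (-0.175 to -0.116) passed without male replicate 4 or 6 or F1/proestrus replicate 1 or 3.

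Some values changed sign. Between the sexes these were *Grin1* (0.00223 with voom, 0.0674 in series 1), *Grin2b* (-0.0123 in series 1, -0.0171 against F2/metestrus), *Grin2d* (-0.0909 in series 2, -0.00686 against F1/proestrus) and the log2 sum (0.0788 in series 1). Between the female groups they were *Grin2a* (0.00597 with voom, 0.114 in series 2), and in series 1 *Grin2b* (-0.0359), *Grin3a* (-0.0017), *Grin3b* (-0.0991), the shares of *Grin2a* (-0.19) and *Grin2c* (0.49) and the GluN3 ratio (-0.0157). The *Grin2d* share was -0.45 per coding length, -0.51 without length and -0.55 in series 1. Leaving out 1 sample gave, between the sexes, *Grin1* -0.0548 to 0.0244, *Grin2b* -0.0404 to 0.0564, *Grin2d* -0.0208 to 0.0566 and the log2 sum -0.0419 to 0.0358. Between the female groups it gave *Grin2a* -0.0420 to 0.0375, *Grin2b* -0.00733 to 0.112, *Grin3a* -0.0283 to 0.0659, the *Grin2d* share -0.94 to 0.88 and the log2 sum -0.0245 to 0.0103. Between the series it gave *Grin1* -0.0551 to 0.00797, *Grin2c* -0.229 to -0.138 and *Grin3b* -0.181 to 0.00912. The causes were not tested.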
